A study of Mus musculus with 6 samples.

Results

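Transcripts of 10 genes of prostaglandin and lipoxygenase metabolism were followed in RNA-seq gene counts of 6 mouse tongues. The genes were found by their symbols and are Ptgs1, Ptgs2, Ptges, Hpgd, Alox5, Alox5ap, Alox12, Alox15, Alox12b and Aloxe3. All 10 were found among the 24067 rows of the count table, and all 10 passed the filter on low counts, which left 15903 genes. The tongues came from C57BL/6 mice of about 34 weeks, 3 labelled HuR wild type (labelled WT) and 3 labelled HuR knockout (labelled KO). Mice of both groups had received the oral carcinogen 4-nitroquinoline 1-oxide (4NQO), which damages DNA, for 16 weeks and were then kept for 12 more, so no untreated tongue stands beside them. Each library was made from excised tongue with its tumour, a mixture of epithelium, muscle, connective tissue and leukocytes. The labels do not say which cells were to lose HuR or what drives the deletion. In bulk samples of this kind fewer cells of a type and less RNA per cell cannot be told apart.

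Eicosanoids are signalling lipids made from arachidonic acid after phospholipases release it from membranes. Cyclooxygenases turn it into prostaglandin H, from which terminal synthases make prostaglandin E and the other prostanoids, whereas lipoxygenases make leukotrienes and hydroxy fatty acids. In stratified epithelium a separate pair of lipoxygenases oxidises linoleate in ceramides, a step needed for the water barrier of skin. HuR, encoded by Elavl1, binds AU-rich elements in the untranslated tails of messenger RNAs, and Ptgs2, the inducible cyclooxygenase, is among its known targets.

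The AU-rich element was looked for in the 3′ untranslated region of 1 coding transcript of each gene (GENCODE M21, build GRCm38), because it is the feature through which HuR is known to bind Ptgs2. In that annotation Ptgs1 lies at chr2:36230426-36252272 (plus strand), Ptges at chr2:30889471-30929863 (minus), Hpgd at chr8:56294585-56321043 (plus), Alox5 at chr6:116410077-116461178 (minus), Alox5ap at chr5:149264767-149288153 (plus), Alox12 at chr11:70241457-70255353 (minus) and Alox15 at chr11:70344152-70352031 (minus). The motifs were ATTTA and the longer TATTTAT, read on the transcript's strand only with overlaps counted, and T stands for U. The Ptgs2 region of 2445 bases held 14 ATTTA and 6 TATTTAT. Of 2222 mouse genes whose region was within 20% of that length, 1.67% held as many ATTTA, with a median of 4. Hpgd had 4 ATTTA in 838 bases, Alox5, Alox5ap and Alox12 had 2 each, and Alox15 had 1. No ATTTA was found in the regions of Ptgs1 (921 bases), Ptges (3106 bases), Aloxe3 (376 bases) or Alox12b (67 bases). TATTTAT occurred once in Hpgd and once in Alox5 and in no member other than these and Ptgs2. Among all 20654 genes with such a region, 61.6% held ATTTA and 25.4% held TATTTAT. Windows of 30 bases from Ptgs2, Hpgd and Alox5, the 3 members with TATTTAT, are shown 5′ to 3′ with each ATTTA in capitals. They lie at chr1:150105796-150105825 (plus strand, bases 14 to 43 after the stop codon), chr8:56320460-56320489 (plus strand) and chr6:116410352-116410381 (minus strand).
Ptgs2: atATTTATTTATTTAtgtgaagaATTTAat
Hpgd: tctcagaaaacatATTTAtaacagtgcctc
Alox5: ggtactttattctATTTAtgcttcctccaa
The Ptgs2 window holds 3 overlapping ATTTA and 1 more after a short spacer, against a single ATTTA in each of the other windows. A match is a description of the letters and not evidence of binding in these tongues.

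**Figure D1:**
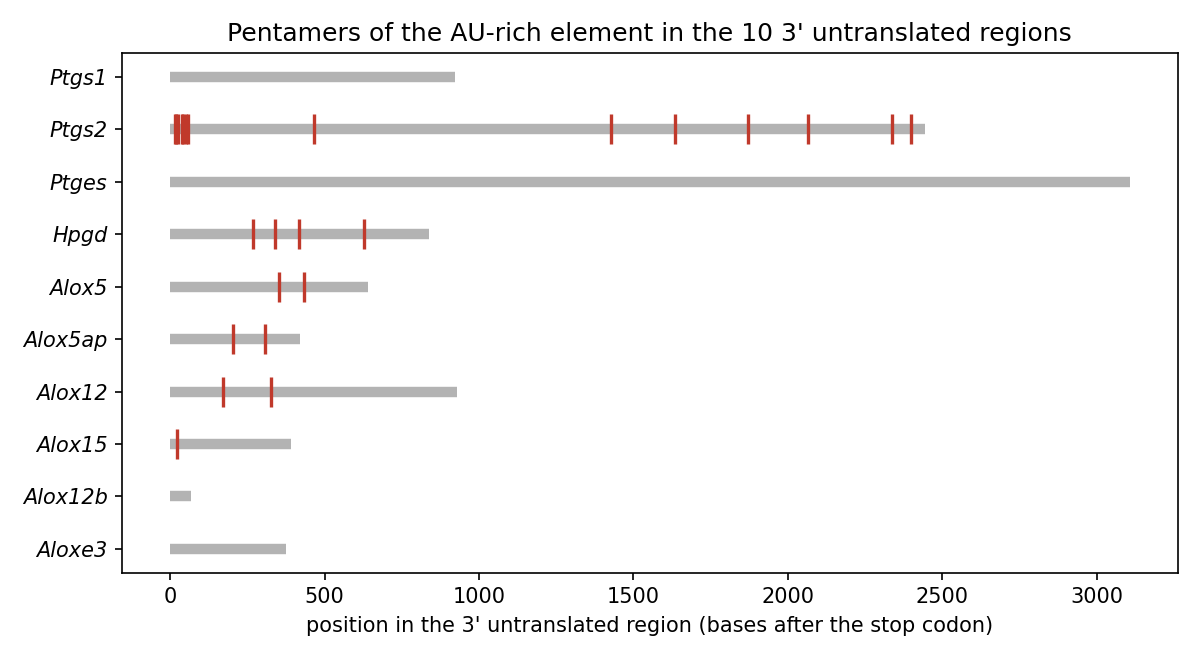
Positions of ATTTA (red ticks) along the 3′ untranslated region (grey bar) of each of the 10 genes, with bases after the stop codon on the horizontal axis. Ptgs2 carries 14, crowded just after the stop codon and then spread to the end, whereas Ptgs1, Ptges, Alox12b and Aloxe3 carry none.

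The promoter of Ptgs2 is also shown, since its transcript varied more between libraries than that of any other member. It is the RefSeq window from 250 before to 50 after the annotated start (GRCm38.p6, chr1:150099781-150100080, plus strand), with motif matches in capitals.
Ptgs2: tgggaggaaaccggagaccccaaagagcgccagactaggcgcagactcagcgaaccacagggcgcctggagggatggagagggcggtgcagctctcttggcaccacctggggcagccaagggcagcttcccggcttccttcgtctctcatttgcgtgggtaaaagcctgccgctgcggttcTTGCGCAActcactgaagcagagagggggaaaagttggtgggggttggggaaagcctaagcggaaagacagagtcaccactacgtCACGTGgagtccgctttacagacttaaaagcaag
The capitals mark TTGCGCAA, a site type of the C/EBP factors, whose first base lies 69 bases before the start, and CACGTG, an E-box, which begins 16 bases after it. The motifs searched were CACGTG, TGACGTCA (the cyclic AMP response element), TGACTCA or TGAGTCA (AP-1) and TTGCGCAA or TTACGTAA (C/EBP), all on both strands, and TATAAA on the gene's strand. Of 32851 RefSeq promoter windows of the same length, 7.15% held CACGTG and 0.3% one of the C/EBP sequences. Promoter windows were found for 7 of the 10 genes. Hpgd had TATAAA, as had 8.32% of all windows, and none of the motifs was in the windows of Ptgs1, Ptges, Alox5, Alox12 or Alox12b.

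Libraries held 29543352 to 51520707 gene counts. Levels below are normalised read counts (CPM), in which 1 CPM stood for 25.6 to 53.0 counts. Elavl1 did not fall with the KO label (67.6 ± 9.81 against 55.1 ± 6.91 CPM, SD, n = 3 each, log2 fold change 0.29 ± 0.15, edgeR adjusted p = 0.180), so no loss of the HuR transcript was seen and each direction below is one between labels. Counts were given per gene, so a loss of single exons could not be read. By Xist and Y-linked genes, KO replicates 2 and 3 were female and the other 4 libraries male. Summed CPM of 13 fast muscle genes ran from 40090 to 56510 in the libraries labelled KO and from 71040 to 131200 in those labelled WT, and that of 8 basal keratinocyte genes from 12720 to 14470 and from 5500 to 11490. Summed CPM of 15 suprabasal keratinocyte genes ran from 21800 to 33390 and from 15910 to 21870. The part that sex and the mix of tissue had in the results below was not tested. Fits with these as covariates are given, but the design does not fully separate them from the label. The muscle and basal keratinocyte sums did not overlap between groups, and both female libraries were labelled KO. With sex as a covariate the label term rests on KO replicate 1, the only male library labelled KO, against those labelled WT. A call lost or a fold change made smaller in these fits therefore cannot be assigned to the covariate or to the label. A positive log2 fold change means a higher level under the KO label; each is given ± its standard error. The adjusted p-values are Benjamini-Hochberg values over all genes tested, from the quasi-likelihood test of edgeR.

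The epidermal lipoxygenases Alox12b and Aloxe3 rose in the libraries labelled KO, and the other 8 genes did not pass the test. The 2 calls among 10 genes stand beside 4.81% of all genes tested called higher. No member was called lower, where 7.43% of all genes tested were (edgeR, 1 member lower at an unadjusted p under 0.05 and 1 by DESeq2, in both cases Alox15). In 4 members (Ptgs1, Ptges, Alox12b and Aloxe3) all libraries labelled KO lay above all labelled WT, as in 22.0% of genes tested, and in Alox15 they lay below, as in 22.1%. These 5 of 10 members without overlap stand beside 44.1% of genes tested, and the 7 members with an unadjusted p under 0.05 beside 38.5%. By limma-voom 3 members were higher and 0 lower, against 6.17% and 8.02% of genes tested, and DESeq2 called 15.9% of its genes lower. Without WT replicate 1 edgeR called 5 members higher and 1 lower, where it called 17.9% and 18.1% of all genes tested in those directions, and without any 1 of the other 5 libraries it called 0. The median log2 fold change was 0.52 over the 10 members and 0.02 over all genes tested. Adjusted p-values of Ptgs1, Ptges and Alox15 lay between 0.05 and 0.07.

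**Figure D2:**
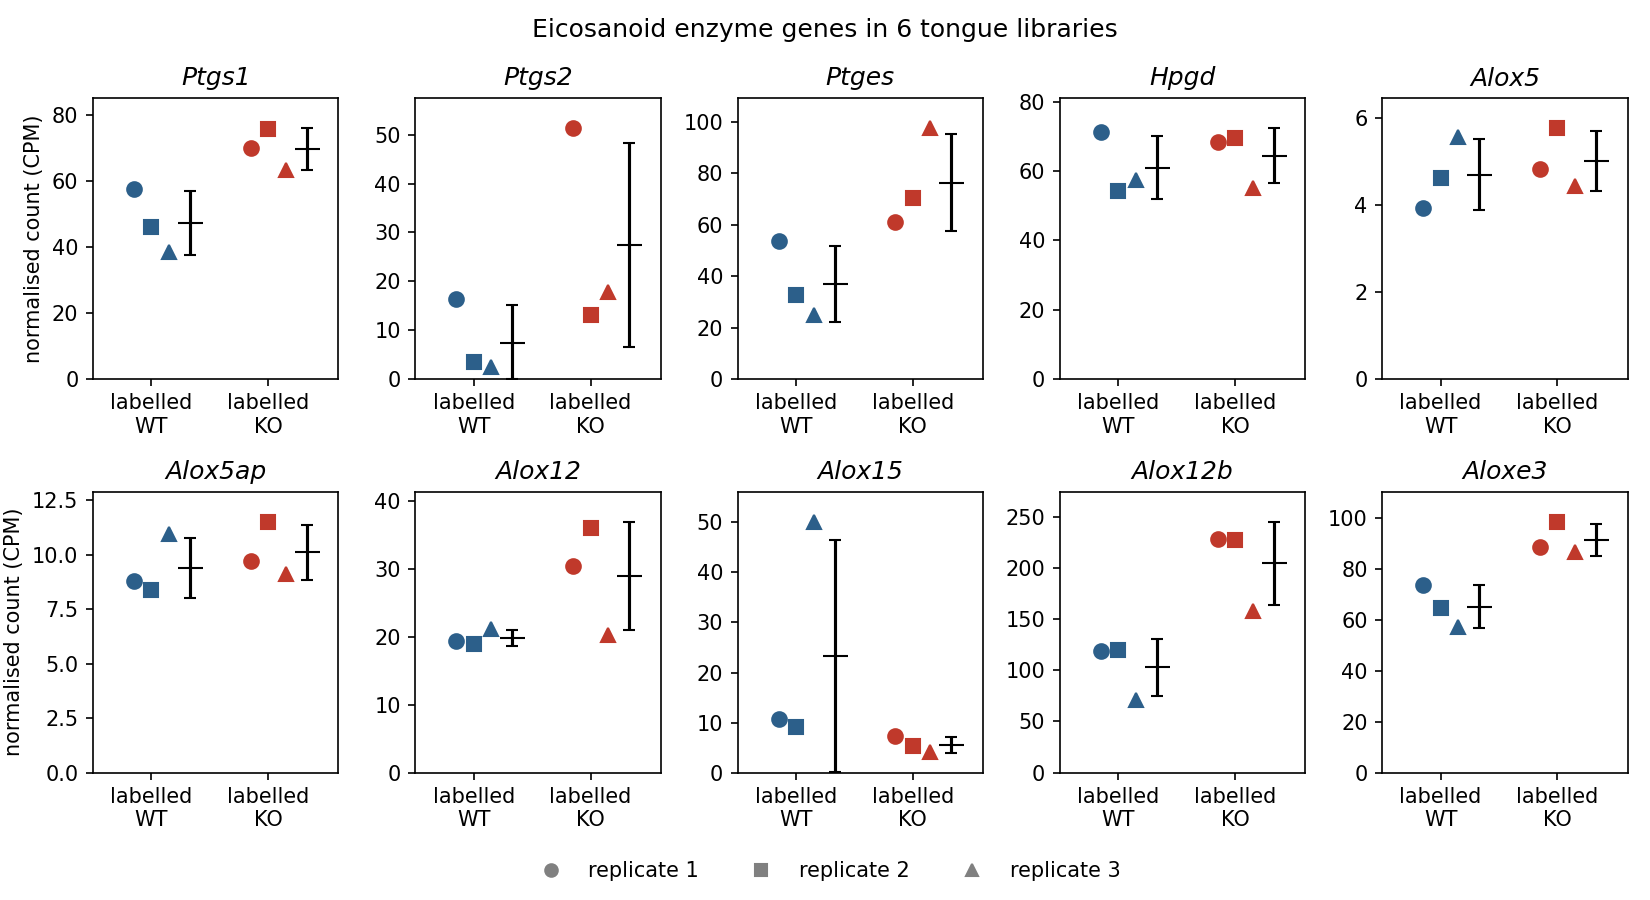
Normalised read counts (CPM, linear axis from 0) of the 10 genes in each library, with replicate numbers as symbols and the mean ± SD of 3 libraries in black (bars stop at 0). The groups stand apart in Ptgs1, Ptges, Alox12b, Aloxe3 and Alox15, and single libraries stand out for Ptgs2 (KO replicate 1, 51.4 CPM) and Alox15 (WT replicate 3, 50.1 CPM).

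Alox12b encodes the 12R-lipoxygenase that oxidises ceramide-bound linoleate in the upper epidermis. It reached 229, 228 and 158 CPM in the tongues labelled KO (replicates 1 to 3 in order) and 119, 119 and 70.6 CPM in the tongues labelled WT (same order). All libraries labelled KO were above all labelled WT, and KO replicate 3 was the lowest of its group. The means were 205 ± 40.4 and 103 ± 28.0 CPM (SD, n = 3), a log2 fold change of 0.99 ± 0.24 (95% interval 0.44 to 1.54, edgeR adjusted p = 0.0418). As a fold this is 1.99, with an interval of 1.36 to 2.91.

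Aloxe3 encodes the hydroperoxide isomerase eLOX3, which acts on the product of 12R-lipoxygenase. It reached 88.9, 98.7 and 87.0 CPM in the tongues labelled KO (replicates 1 to 3 in order) and 73.9, 64.7 and 57.1 CPM in the tongues labelled WT (same order). The groups did not overlap, and the spread within each was narrower than for Alox12b. The fitted log2 fold change, 0.49 ± 0.13, had a 95% interval of 0.19 to 0.79 and an adjusted p of 0.0489 by edgeR. The genes are neighbours on chromosome 11 of GRCm38, Aloxe3 at 69125896 to 69149115 and Alox12b at 69156989 to 69169792, both on the plus strand. Per library the log2 ratio of Alox12b to Aloxe3 CPM was 1.36, 1.21 and 0.86 in KO replicates 1, 2 and 3 and 0.69, 0.88 and 0.31 in WT replicates 1, 2 and 3. WT replicate 2 and KO replicate 3 overlapped in this ratio, and the difference between groups gave p = 0.2 in an exact 2-sided permutation test, whose smallest possible value with 3 libraries a side is 0.1.

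Both calls were lost when any library but WT replicate 1 was left out. Then the log2 fold change of Alox12b was 0.78 to 1.15 (edgeR adjusted p = 0.0527 to 0.141) and that of Aloxe3 0.40 to 0.52 (0.0815 to 0.163). With the fast muscle mean as a covariate they were 0.33 and 0.22, with the basal keratinocyte mean 0.65 and 0.26, and with sex 1.15 and 0.45, and neither was called in any of these fits. Set against suprabasal keratinocyte genes (log2 CPM of the gene minus the mean log2 CPM of that list), Alox12b stood lower in the libraries labelled KO, at -0.97 ± 0.05 against -0.54 ± 0.14. Aloxe3 did so too, at -2.11 ± 0.31 against -1.17 ± 0.35 (exact permutation p = 0.1 for both, the smallest possible). So did 6 other members, Ptgs1 (a difference of -0.86), Hpgd (-1.36), Alox5 (-1.34), Alox5ap (-1.33), Alox12 (-0.93) and Alox15 (-3.08), while Ptgs2 and Ptges overlapped. Against basal keratinocyte genes both overlapped, with differences of 0.25 for Alox12b and -0.26 for Aloxe3 (exact permutation p = 0.4 and p = 0.3). Against fast muscle genes both stood higher in the libraries labelled KO, by 1.95 and 1.43 on the log2 scale (exact permutation p = 0.1 for both), as did Ptgs1, Ptgs2, Ptges, Alox5, Alox5ap and Alox12. The lists themselves moved between the labels, with median log2 fold changes of 1.202 for suprabasal keratinocyte genes and -1.014 for fast muscle genes. A gene with no change of its own would stand lower against the first list and higher against the second. Hpgd, with a log2 fold change of 0.08, gave differences of -1.36 and 1.02, the latter with overlapping groups. The share of all genes that did the same was not counted, so these directions do not set Alox12b and Aloxe3 apart.

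**Figure D3:**
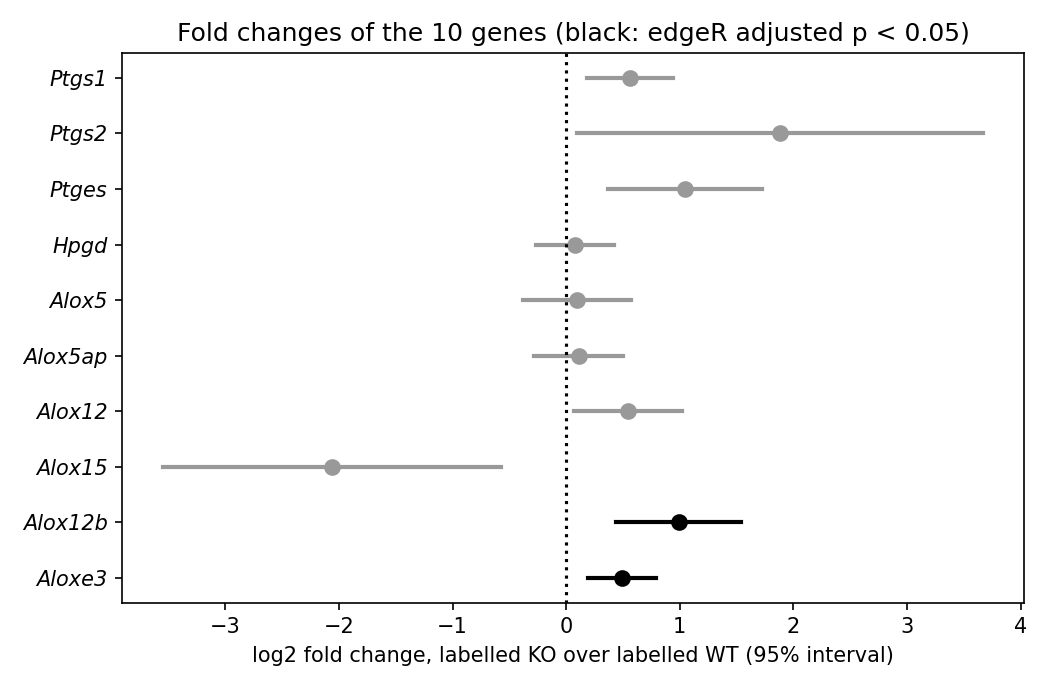
Log2 fold change of each gene, labelled KO over labelled WT (points), with its 95% interval (bars) from edgeR's fit to 6 libraries. Only Alox12b and Aloxe3, in black, had an adjusted p under 0.05, and the intervals of Ptgs2 (0.10 to 3.67) and Alox15 (-3.55 to -0.57) were the widest.

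Ptgs2, the inducible cyclooxygenase COX-2, varied 21.2-fold between the lowest and the highest library. It reached 51.4, 13.1 and 17.8 CPM in the tongues labelled KO (replicates 1 to 3 in order) and 16.3, 3.52 and 2.42 CPM in the tongues labelled WT (same order), from 2357, 495, 941, 568, 169 and 62 counts. KO replicate 1 was far above the rest, and WT replicate 1 lay between KO replicates 2 and 3, so the groups overlapped. The fitted log2 fold change, 1.88 ± 0.77, had a 95% interval of 0.10 to 3.67 and an adjusted p of 0.116 by edgeR. It was 1.06 ± 0.73 without KO replicate 1 (edgeR adjusted p = 0.363) and 3.20 ± 0.73 without WT replicate 1 (edgeR adjusted p = 0.0239). With a covariate it was -0.36 ± 0.71 (fast muscle mean), 0.29 ± 0.90 (basal keratinocyte mean) and 2.79 ± 0.85 (sex). The gene lies at chromosome 1, 150100031 to 150108227, plus strand.

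Ptgs1, the constitutive cyclooxygenase COX-1, was more even. It reached 70.1, 75.8 and 63.3 CPM in the tongues labelled KO (replicates 1 to 3 in order) and 57.4, 45.9 and 38.3 CPM in the tongues labelled WT (same order). The groups did not overlap, and the fitted log2 fold change, 0.56 ± 0.16, had a 95% interval of 0.18 to 0.94 and an adjusted p of 0.0567 by edgeR. Per kilobase of transcript the Ptgs1 level exceeded that of Ptgs2 in both groups, with means of 24.3 ± 2.19 and 6.15 ± 4.69 CPM per kilobase in the libraries labelled KO and 16.5 ± 3.36 and 1.66 ± 1.73 in those labelled WT (SD, n = 3). The log2 ratio of Ptgs2 to Ptgs1 CPM was highest in KO replicate 1 (-0.45) and lowest in WT replicate 3 (-3.98), and the groups overlapped (exact permutation p = 0.3).

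Ptges encodes the inducible microsomal prostaglandin E synthase that acts after the cyclooxygenases. It reached 61.1, 70.4 and 97.7 CPM in the tongues labelled KO (replicates 1 to 3 in order) and 53.5, 32.7 and 24.7 CPM in the tongues labelled WT (same order). The groups did not overlap, but KO replicate 3 was highest, where KO replicate 1 was for Ptgs2. The fitted log2 fold change, 1.05 ± 0.29, had a 95% interval of 0.37 to 1.72 and an adjusted p of 0.0525 by edgeR. Set against basal keratinocyte genes, Ptges stood higher under the KO label by a mean of 0.33 on the log2 scale (exact permutation p = 0.1). The groups barely parted, with KO replicate 1 at -3.7885 and WT replicate 1 at -3.7898. The share of all genes that did the same was not counted. Against suprabasal genes the groups overlapped (-0.35, exact permutation p = 0.5). Without WT replicate 1, Ptges stood at 1.42 ± 0.23 (adjusted p = 0.00504) and Ptgs1 at 0.74 ± 0.14 (adjusted p = 0.00840). By DESeq2 both were called higher on all 6 libraries (adjusted p = 0.00541 and 0.0186), where that tool called 12.1% of its genes higher.

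Hpgd, the dehydrogenase that inactivates prostaglandin E, did not pass the test. It reached 68.5, 69.6 and 55.3 CPM in the tongues labelled KO (replicates 1 to 3 in order) and 71.3, 54.2 and 57.6 CPM in the tongues labelled WT (same order). The highest and the lowest library were both labelled WT, and the fitted log2 fold change, 0.08 ± 0.15, had a 95% interval of -0.27 to 0.42 and an adjusted p of 0.714 by edgeR. Per kilobase Hpgd was the second of the 10 genes after Alox12b, at 38.3 ± 4.76 and 36.3 ± 5.38 CPM per kilobase in the libraries labelled KO and WT, against 84.2 ± 16.6 and 42.4 ± 11.5 for Alox12b. In the libraries labelled WT the means of Hpgd and Alox12b differed by less than the SD of Alox12b.

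The leukotriene pair did not pass either. Alox5 encodes the 5-lipoxygenase of leukocytes and reached 4.82, 5.77 and 4.43 CPM in the tongues labelled KO (replicates 1 to 3 in order) and 3.93, 4.61 and 5.55 CPM in the tongues labelled WT (same order). Alox5ap encodes FLAP, the membrane protein that presents arachidonate to it, and reached 9.72, 11.5 and 9.10 CPM in the tongues labelled KO (replicates 1 to 3 in order) and 8.80, 8.40 and 10.9 CPM in the tongues labelled WT (same order). The groups overlapped in both genes, and KO replicate 2 was the highest library in both. The log2 fold changes were 0.09 ± 0.20 for Alox5 (95% interval -0.38 to 0.57) and 0.11 ± 0.17 for Alox5ap (-0.29 to 0.50), with edgeR adjusted p = 0.753 and 0.657. The log2 ratio of Alox5 to Alox5ap was -1.015 ± 0.02 under the KO label and -1.003 ± 0.15 under the WT label, a difference below the spread (exact permutation p = 0.8). An antisense gene, Gm19719, overlaps Alox5ap, and without a stated strand setting their reads cannot be told apart.

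Leukocyte markers beside these values did not move as one. The calls among them stand beside 4.81% of all genes tested called higher (edgeR). With the muscle mean or the basal keratinocyte mean as a covariate no gene was called. Of 7 macrophage markers none passed the test (edgeR, lowest unadjusted p = 0.213), with summed CPM of 162 to 206 in the libraries labelled KO and 181 to 202 in those labelled WT. Of 4 neutrophil markers tested 3 rose, among them the chemokine receptor Cxcr2 (3.14 ± 0.44 against 0.93 ± 0.38 CPM). The summed CPM of the 6 neutrophil markers in the table was 13.1 to 17.3 and 4.18 to 8.51, with Ngp and Camp near 0. Of 10 mast cell markers 4 rose, the proteases Mcpt1 (5.89 ± 2.67 against 0.12 ± 0.10 CPM), Mcpt2 (2.92 ± 0.96 against 0.15 ± 0.21 CPM) and Tpsab1 (15.6 ± 3.74 against 6.52 ± 1.01 CPM) and the histidine decarboxylase Hdc (7.61 ± 2.39 against 3.39 ± 0.98 CPM). The other 6 did not pass. Mcpt4 (-0.07 ± 0.14), Cma1 (-0.14 ± 0.21) and Cpa3 (-0.09 ± 0.21) lay below 0, and Kit (0.11 ± 0.17), Tpsb2 (0.155 ± 0.14) and Ms4a2 (0.58 ± 0.28) above. The mast cell list's summed CPM was 95.2 to 113.6 and 74.8 to 85.2. Of 4 pan-leukocyte genes none passed the test (edgeR, adjusted p = 0.0523 to 0.131), with log2 fold changes of 0.51 to 1.02 and summed CPM of 97.9 to 129.6 and 59.7 to 93.6. Eosinophil markers were near 0 in all 6 libraries, with a summed CPM of at most 0.43. The part of these cells in the Alox5 and Alox5ap values was not tested.

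Alox12, the platelet-type 12S-lipoxygenase that is also made in keratinocytes, reached 30.4, 36.0 and 20.3 CPM in the tongues labelled KO (replicates 1 to 3 in order) and 19.3, 19.0 and 21.2 CPM in the tongues labelled WT (same order). KO replicates 1 and 2 were above the rest, and KO replicate 3 lay among the libraries labelled WT. The fitted log2 fold change, 0.55 ± 0.21, had a 95% interval of 0.07 to 1.02 and an adjusted p of 0.0966 by edgeR. Platelet markers beside it ran from 37.5 to 40.9 summed CPM in the libraries labelled KO and from 29.3 to 30.6 in those labelled WT. Of 5 tested genes 2 were higher (edgeR), Itga2b (0.57 ± 0.15) and Gp1bb (1.36 ± 0.26), where 4.81% of all genes tested were. Ppbp (1.83 ± 0.58) did not pass. Pf4 (-0.38 ± 0.16) and Gp1ba (-0.32 ± 0.17) lay below 0 and did not pass either.

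Alox15, the mouse 12/15-lipoxygenase of macrophages and eosinophils, was the only member whose fold change was below 0. It reached 7.23, 5.24 and 4.19 CPM in the tongues labelled KO (replicates 1 to 3 in order) and 10.7, 9.13 and 50.1 CPM in the tongues labelled WT (same order), from 332, 198, 222, 372, 438 and 1282 counts. All libraries labelled KO lay below all labelled WT, but WT replicate 3 alone held most of the difference in means. The fitted log2 fold change, -2.06 ± 0.64, had a 95% interval of -3.55 to -0.57 and an adjusted p of 0.0656 by edgeR. It was -0.84 ± 0.24 without WT replicate 3 (adjusted p = 0.0797). In the authors' deposited table of 6 libraries Alox15 had a log2 fold change of -1.06 turned to labelled KO over labelled WT, and its p-value was listed as NA. The DESeq2 fit made here to the same libraries gave -2.08 ± 0.80. In the authors' deposited tables of 4 libraries it stood at -1.61 (adjusted p = 0.00483) with WT replicates 1 and 3 and at -1.09 (adjusted p = 0.101) with WT replicates 2 and 3.

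The authors' deposited tables give their own DESeq2 comparison, with wild type over knockout, turned here to labelled KO over labelled WT. In the authors' deposited table of 6 libraries Alox12b stood at 0.90 (adjusted p = 0.00148), Ptges at 0.92 (0.00536), Aloxe3 at 0.46 (0.0112) and Ptgs1 at 0.52 (0.0184). In the authors' deposited table of 4 libraries with WT replicates 1 and 3, the adjusted p was 0.00283 for Alox12b, 0.207 for Ptges, 0.199 for Aloxe3 and 0.175 for Ptgs1. In the authors' deposited table with WT replicates 2 and 3 it was 3.03e-05, 1.639e-06, 0.00459 and 0.000438 for the same genes. On all 6 libraries Ptgs2 stood at 0.77 ± 0.41 in the authors' deposited table (0.138), a smaller value than the 1.88 of the edgeR fit. The DESeq2 fit made here to the same libraries gave 1.88 ± 0.98 (adjusted p = 0.129). The deposited fold changes may thus be on another scale than those of the fits here, and their sizes are not directly comparable. Why they differ was not tested. In the authors' deposited table of 4 libraries with WT replicates 1 and 3, Ptgs2 stood at 0.53 (adjusted p = 0.454), and in that with WT replicates 2 and 3 at 1.86 (adjusted p = 0.00239). Both of these authors' deposited tables used KO replicates 1 and 2 and WT replicate 3, so they share 3 of 4 libraries.

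**Figure D4:**
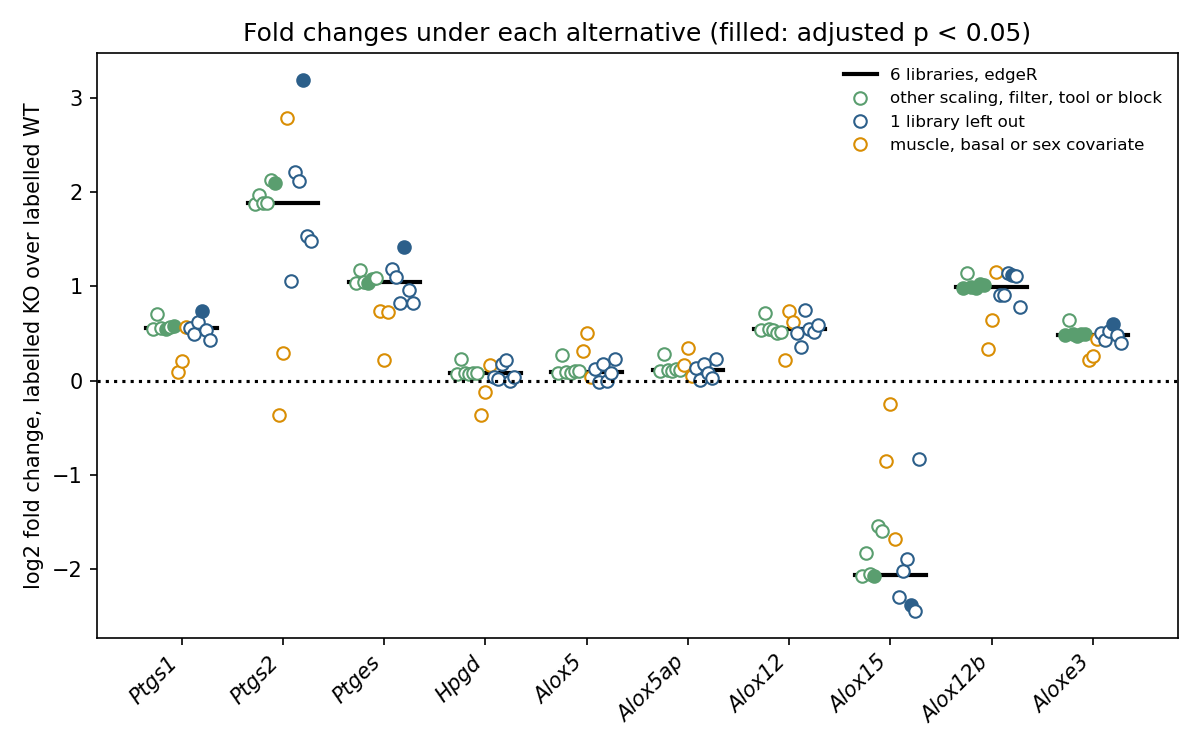
Log2 fold change of each gene, labelled KO over labelled WT, in edgeR's fit to 6 libraries (black line) and under each of 15 alternatives (circles), coloured by kind and filled where the adjusted p was under 0.05. Ptgs2 ranges from -0.36 to 3.20, and Alox12b and Aloxe3 stay above 0 but are open circles under most alternatives that leave out a library or add a covariate.

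Genes on either side of these enzymes were read from lists set by role, 65 genes in all, of which 58 were tested. Of these 13 rose and 4 fell, with 4.81% and 7.43% of all genes tested called in those directions. The epidermal lipid route, in which Alox12b and Aloxe3 act, held 11 of the 13 rises: of its 13 genes 11 rose and 0 fell (edgeR, 0 lower also at an unadjusted p under 0.05 and by DESeq2), with a median log2 fold change of 1.13. Ceramide synthase Cers3, which makes the ultra-long ceramides of the barrier, rose by 1.91 ± 0.27 on the log2 scale, with means of 105 ± 16.6 and 27.9 ± 10.6 CPM under the KO and WT labels (edgeR adjusted p = 0.0295). The lipid transporter Abca12 rose from 35.5 ± 20.3 to 131 ± 39.5 CPM (1.88 ± 0.47), and Sdr9c7, a dehydrogenase that acts on the products of both lipoxygenases, from 13.3 ± 3.69 to 46.2 ± 12.5 CPM (1.79 ± 0.27). The fatty acid elongases Elovl4 (1.63 ± 0.35) and Elovl1 (1.00 ± 0.21), the acyltransferase-like Pnpla1 (1.44 ± 0.34) and the epoxide hydrolase Ephx3 (1.24 ± 0.21) rose. So did the fatty acid hydroxylase Cyp4f39 (1.13 ± 0.30), the glucosylceramide synthase Ugcg (0.85 ± 0.19) and the fatty acid transporter Slc27a4 (0.50 ± 0.11). Nipal4 (0.98 ± 0.33) and Abhd5 (0.09 ± 0.11) did not pass. The 11 rises became 0 without KO replicate 1, KO replicate 2 or WT replicate 2, 1 without KO replicate 3 and 10 without WT replicate 3 (edgeR). The 4 falls over all role lists became 10 without WT replicate 1, 2 without WT replicate 3 and 0 without any other library. All these counts became 0 with the muscle mean, the basal keratinocyte mean or sex as a covariate. Suprabasal keratinocyte markers moved with them, with 8 of 15 higher, 0 lower and a median of 1.202.

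The steps before and after the cyclooxygenases were mixed. Outside the epidermal lipid route, 2 of 45 tested genes of the role lists rose and 4 fell. That is near the shares of all genes tested, 4.81% higher and 7.43% lower, so the single calls below do not set these lists apart. Among 11 tested phospholipases 2 rose, Pla2g4d (19.1 ± 7.54 to 44.8 ± 9.72 CPM) and the low Pla2g4c (0.73 ± 0.08 to 1.98 ± 0.56 CPM). Pla2g4a, the cytosolic phospholipase that supplies arachidonate, stood at 44.8 CPM in KO replicate 1 and at 13.6 to 21.8 CPM in the other 5 libraries. Of 6 tested prostanoid synthases 1 fell, the prostacyclin synthase Ptgis (10.9 ± 2.38 to 6.38 ± 0.88 CPM, edgeR adjusted p = 0.0485). Of 8 tested prostanoid receptors 1 fell, the prostaglandin F receptor Ptgfr (11.1 ± 3.87 to 5.78 ± 0.04 CPM). Among the prostaglandin E receptors Ptger1 (-0.53 ± 0.16) lay below 0. Ptger2 (0.78 ± 0.33), Ptger3 (0.23 ± 0.21) and Ptger4 (0.56 ± 0.24) lay above, and none of these receptors passed. Endothelial and fibroblast markers were lower beside Ptgis and Ptgfr, with 3 of 5 and 2 of 6 called lower.

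Among 4 genes of prostanoid transport and breakdown, the reductase Ptgr2 fell (151 ± 44.8 to 83.4 ± 11.03 CPM, edgeR adjusted p = 0.0465). The transporter Abcc4 gave 228, 67.6 and 65.8 CPM under the KO label (replicates 1 to 3 in order) and 22.2 to 58.4 CPM under the WT label. The reductase Ptgr1 gave 1507, 822 and 736 CPM and 145 to 643 CPM. The prostaglandin uptake carrier Slco2a1 gave 54.5, 31.2 and 37.0 CPM and 10.8 to 27.1 CPM. In Abcc4, Ptgr1 and Slco2a1 all libraries labelled KO lay above all labelled WT, as in 22.0% of genes tested. In Ptgr2 they lay below, as in 22.1%. KO replicate 1 was highest in Abcc4, Ptgr1 and Slco2a1, as for Ptgs2 and Pla2g4a. Abcc4, Ptgr1, Slco2a1 and Pla2g4a did not pass the test and were named after their values were seen. Of 10 leukotriene enzymes and receptors the dipeptidase Dpep1 fell (48.6 ± 5.61 to 28.1 ± 4.55 CPM), and the leukotriene B4 receptor Ltb4r1 stood at 0.69 ± 0.22 (edgeR adjusted p = 0.0707). Of the other lists, neither Alox12e (-1.05 ± 0.46), a further lipoxygenase of the chromosome 11 cluster, nor the epoxide hydrolase Ephx1 (0.43 ± 0.25) passed. The low Alox8, the only other gene of the list that holds Alox12e, lay on the other side of 0 (1.72 ± 0.64). It did not pass either (edgeR adjusted p = 0.0952).

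**Figure D5:**
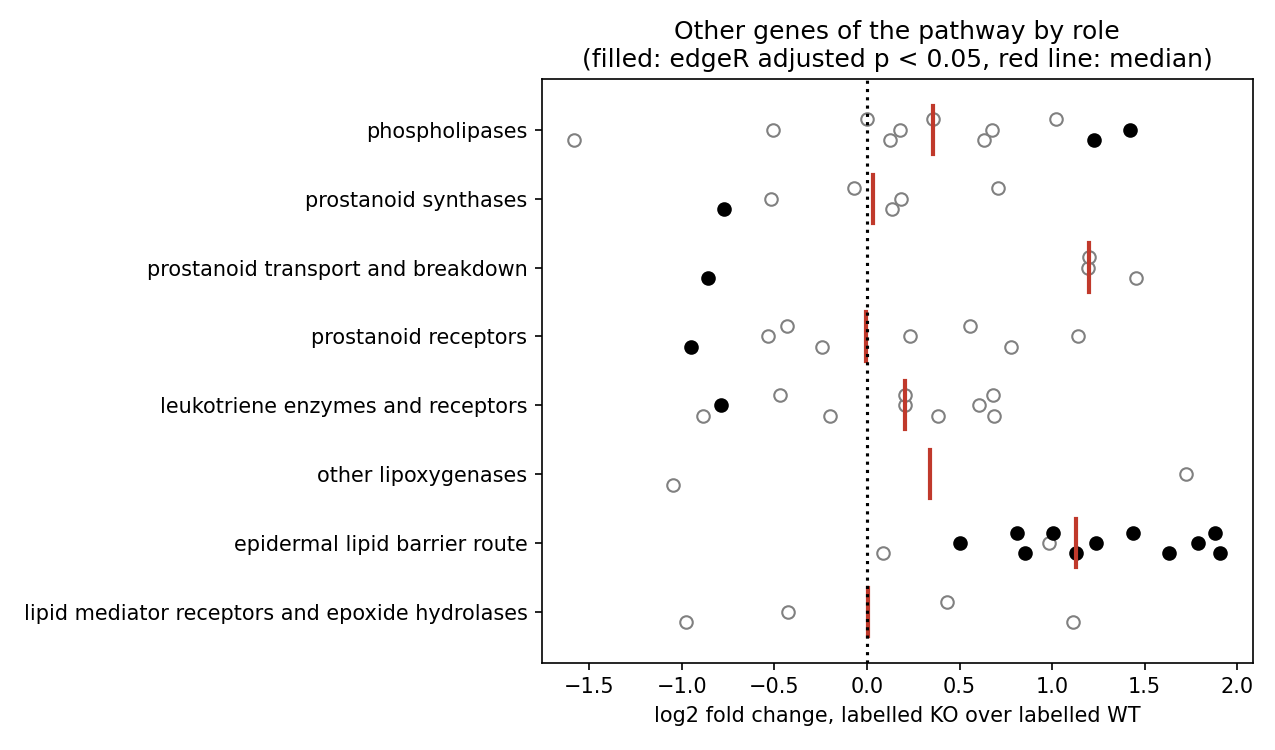
Log2 fold change, labelled KO over labelled WT, of the 58 tested genes of 8 role lists, 1 circle a gene (vertical offsets are for display), filled where edgeR's adjusted p was under 0.05, with the list median in red. The epidermal lipid barrier route has its 13 genes above 0 and 11 filled, and the other lists straddle 0.

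The genes most like Ptgs2 were sought among 13541 tested genes with a mean of at least 1 CPM, by the root-mean-square distance between centred log2 CPM profiles over the 6 libraries. Of the 5 nearest, 4 were Inhba (distance 0.30), which encodes a subunit of activin A, the serine protease Tmprss12 (0.30), tenascin C, Tnc (0.48), and the BMP antagonist Grem1 (0.49). Inhba reached 12.5, 4.23 and 5.94 CPM in the tongues labelled KO (replicates 1 to 3 in order) and 7.14, 1.58 and 0.78 CPM in the tongues labelled WT (same order). Picked for its nearness, Inhba was like Ptgs2 highest in KO replicate 1 and had WT replicate 1 above KO replicate 2. Unlike Ptgs2, it also had WT replicate 1 above KO replicate 3. None of the 4 named genes passed the test (edgeR adjusted p = 0.115 to 0.242). Within the 10 members the closest pairs were Ptgs1 with Aloxe3 (0.08) and Alox5 with Alox5ap (0.09). Hpgd was nearest to Alox5ap (0.19), Alox12 to Aloxe3 (0.25), Alox12b and Ptges to Ptgs1 (0.29 and 0.40) and Alox15 to Alox5 (1.118). The nearest member to Ptgs2 was Ptges, at 1.03, and the farthest Alox15, at 2.41. These distances describe 6 libraries that share the contrast and the mix of tissues.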

How the data were processed

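RNA-seq libraries (TruSeq, total RNA) of 6 mouse tongues were analysed from the authors' gene tables. The authors deposited raw read counts per gene with, per the file headers, the mean normalised count (a signal, scaled by size factor), log2 fold changes and their errors, a test statistic (a score), and p-values with adjusted p-values. The submitters' processing notes name HTSeq, DESeq2 and 2 builds, mm10 and hg19. The aligner, annotation, strand setting and the use of each build: not given in the sources used here. Counts were filtered with filterByExpr (minimum count 10, minimum total 15), scaled by TMM and fitted with edgeR 4.0.16 (R 4.3.3) with robust quasi-likelihood and group as the only term, with calls at adjusted p under 0.05. Biological variation (common BCV) came to 20.7%. Standard errors are the absolute log2 fold change over the square root of F and are approximate. Log2 CPM used a prior count of 2. Alternatives were DESeq2 1.42.0, limma-voom (limma 3.58.1), other scalings and filters, covariates, a replicate block and leaving out each library. On simulated counts of 15931 genes with 200 changed by 1 on the log2 scale, edgeR recovered 145 with 2 false calls, and 200 with 10 false calls for a change of 2. The simulation gave all genes the same variation, held no difference in sex or tissue between libraries and changed only genes with ample counts. It checks the fit and does not give the power or the false calls in these tongues. The labels do not say that each library is a separate animal, although the sex genes differ among the libraries labelled KO, and p-values measure only the spread between libraries.

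The members and lists were chosen with earlier results of these data known. Named genes are the 10 members, every called gene of the role lists (or, in a list with none, its most abundant gene) and the 5 genes nearest to Ptgs2; 1 called gene of the role lists and 1 of these 5 are not reported here. Slco2a1, Abcc4, Ptgr1, Pla2g4a, Ptger1, Ptger2, Ptger3, Ptger4, Ltb4r1, Alox8, Nipal4 and Abhd5 were named after their values were seen. So were the markers Mcpt1, Mcpt2, Tpsab1, Hdc, Mcpt4, Cma1, Cpa3, Kit, Tpsb2, Ms4a2, Cxcr2, Ngp, Camp, Pf4, Gp1ba, Gp1bb, Itga2b and Ppbp. Of the cell type markers, Adgre1, Ly6g and Siglecf were not matched. Transcript lengths are those of 1 coding transcript a gene in GENCODE M21. Genes overlapping a member in that annotation are Gm43621 (Ptgs1), Gm13400 (Ptges), Gm45540 (Hpgd) and Gm19719 and n-R5s180 (Alox5ap).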

Additional observations from a re-analysis of the deposited data

How the results depend on the processing

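The calls over all genes (765 higher, 1181 lower), over the 10 members (2 and 0), over the pathway lists (13 and 4) and over the barrier route (11 higher) were, with library totals only, 406 and 468, 0 and 0, 7 and 1, and 6. That scaling moved the median log2 fold change of all genes from 0.02 to 0.18. By DESeq2 they were 1881 and 2468, 4 and 1, 20 and 7, and 12. With the fast muscle mean, the basal keratinocyte mean or sex as a covariate they were 0 throughout (edgeR; at an unadjusted p under 0.05, 240 higher and 244 lower with muscle, 395 and 416 with basal keratinocytes and 1672 and 1860 with sex). Leaving out 1 library gave 0 to 2906 higher and 0 to 2938 lower genes, 0 to 5 and 0 to 1 members, 0 to 21 and 0 to 10 pathway genes and 0 to 12 barrier genes, with the most in each case without WT replicate 1. The counts over the role lists were put through the alternatives after seeing the data.

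Deviations from the group mean correlated at r = 0.12, -0.16 and 0.19 between same-numbered libraries (numbers 1, 2 and 3). Between differently numbered libraries r was -0.22 to 0.17. With 3 libraries a group these values cannot decide whether the number is a pairing, and the labels name none. With the replicate block there were 1705 higher and 2112 lower genes and 4 members higher, adding Ptgs1 (0.58, adjusted p = 0.0221) and Ptgs2 (2.10, adjusted p = 0.00528).

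Of the members, Alox12b passed under 6 of 15 alternatives and Aloxe3 under 6. They did not pass with library totals (1.14 and 0.64), muscle (0.33 and 0.22), basal keratinocytes (0.65 and 0.26) or sex (1.15 and 0.45), and ranged over 0.78 to 1.15 and 0.40 to 0.60 with 1 library left out. DESeq2 called Ptgs1 (0.55), Ptges (1.04) and Alox15 (-2.08), and limma-voom Ptges (1.08). With 1 library left out Ptgs1 ranged over 0.43 to 0.74, Ptgs2 over 1.06 to 3.20, Ptges over 0.83 to 1.42, Hpgd over -0.00 to 0.22, Alox5 over -0.02 to 0.22 and Alox15 over -2.45 to -0.84. Signs turned for Ptgs2 with muscle (-0.36), for Hpgd with muscle (-0.37), basal keratinocytes (-0.12) and without WT replicate 2 (-0.0018), and for Alox5 without KO replicate 2 (-0.0187) and without WT replicate 1 (-0.0027). The cause was not tested. Of members set against the tissue lists, the 240 alternative values moved by less than the larger of the group SDs, which is wide where 1 library stands apart. Alox12 against basal keratinocytes (-0.25) turned sign when KO replicate 3 (0.04) or WT replicate 3 (0.02) was left out, and Ptges against suprabasal keratinocytes ran from -0.74 to -0.09 with 1 library left out. Ptgs2 in WT replicate 3 rests on 62 counts.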
